A study of Homo sapiens and Mus musculus with 20 samples.

Results

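The accessible chromatin of 10 genes for Kruppel-like factors (KLF2, KLF3, KLF4, KLF5, KLF6, KLF7, KLF9, KLF10, KLF11 and KLF13) was described in SW480 cells treated with sodium propionate (NaPr) or sodium butyrate (NaBu). Members were the regions with an ATAC-seq peak in any of the 12 SW480 libraries that touched a gene body or the 20 kb on either side of it. 153 of the 252173 merged SW480 regions met this rule. KLF13 held 40 of them, KLF5 24, KLF6 18, KLF9 14, KLF7 and KLF11 12 each, KLF3 and KLF10 10 each, KLF4 8 and KLF2 5. Regions are named by their gene and their order along the chromosome, so that KLF2_1 has the lowest coordinates of the KLF2 regions.

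SW480 is an established epithelial line from a human colorectal adenocarcinoma. In one experiment cells received 10 mM NaPr or none, and in another 1 mM NaBu or none, for 12 to 16 h, with 3 libraries in each of the 4 groups. Each experiment had untreated libraries of its own, and the doses differ by acid. Values of the acids are therefore set side by side and not compared. The question of the comparison is where these fatty acids, which gut bacteria make from fibre, alter the openness of chromatin. The labels do not say whether the replicates were separate cultures, so p-values measure the spread between these libraries, which may be technical.

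Kruppel-like factors bind GC-rich and CACCC sequences through zinc fingers at their carboxyl end, and they differ in the cofactors that their other parts recruit. KLF2, KLF4, KLF5, KLF6 and KLF7 are known mostly as activators, KLF3 as a repressor that recruits CtBP, and KLF9, KLF10, KLF11 and KLF13 as factors that recruit SIN3. In the intestine KLF5 is known from dividing crypt cells and KLF4 from differentiated cells and goblet cells. Butyrate is a known inhibitor of histone deacetylases, and propionate a weaker one.

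The level of a region was its percentile rank by peak significance among the regions tested in that experiment, from 0, the value given where a library lists no peak, to 100. A region was tested where at least 2 of the 6 libraries had a peak, and it was called where limma gave a Benjamini-Hochberg adjusted p below 0.05 over all tested regions. A rank of 0 means only that no peak was listed and does not exclude reads there. The number of tags at the summit could be worked out from each peak's fold enrichment and p, and is given where it adds to the rank. Tags, fold enrichment and significance of a region were each the largest over its summits in that library. They can thus come from different summits.

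The stretches of 200 bp around the highest summit follow for the regions on which the results turn, from GRCh38, plus strand, 5′ to 3′. Capitals mark 3 elements, each searched on both strands. The CACCC box, the core that Kruppel-like factors bind, has the letters CACCC. The GC box, bound by both Kruppel-like and SP factors, has the letters CCGCCC. The AP-1 element, bound by FOS and JUN proteins, has the letters TGAGTCA or its reverse complement. KLF13_39 was the region called higher, and KLF6_14 the region called lower, after both acids. KLF2_2 and KLF2_3 were called in opposite directions after NaBu. KLF5_14 and KLF6_16 had the largest falls at their genes after NaBu.
KLF13_39, chr15:31443769-31443968: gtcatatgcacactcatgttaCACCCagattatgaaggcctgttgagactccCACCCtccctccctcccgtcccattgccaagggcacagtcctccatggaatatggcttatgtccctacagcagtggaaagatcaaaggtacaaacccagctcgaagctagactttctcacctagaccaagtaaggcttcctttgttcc
KLF6_14, chr10:3782942-3783141: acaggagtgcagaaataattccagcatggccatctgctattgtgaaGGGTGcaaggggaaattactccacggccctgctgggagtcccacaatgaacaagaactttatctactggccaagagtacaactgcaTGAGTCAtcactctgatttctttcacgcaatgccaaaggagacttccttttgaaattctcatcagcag
KLF2_2, chr19:16324560-16324759: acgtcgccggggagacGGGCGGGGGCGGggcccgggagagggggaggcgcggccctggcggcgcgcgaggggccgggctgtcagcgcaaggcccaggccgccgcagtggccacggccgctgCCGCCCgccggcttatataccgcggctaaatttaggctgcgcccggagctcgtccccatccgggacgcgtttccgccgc
KLF2_3, chr19:16330513-16330712: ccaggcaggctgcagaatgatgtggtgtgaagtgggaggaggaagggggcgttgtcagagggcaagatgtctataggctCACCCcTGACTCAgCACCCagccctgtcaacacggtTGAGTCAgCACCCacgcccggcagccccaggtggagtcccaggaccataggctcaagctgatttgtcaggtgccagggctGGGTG
KLF5_14, chr13:73060974-73061173: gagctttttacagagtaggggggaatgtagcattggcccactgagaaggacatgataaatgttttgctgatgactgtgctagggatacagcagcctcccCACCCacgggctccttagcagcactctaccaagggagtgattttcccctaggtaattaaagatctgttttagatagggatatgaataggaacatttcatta
KLF6_16, chr10:3784012-3784211: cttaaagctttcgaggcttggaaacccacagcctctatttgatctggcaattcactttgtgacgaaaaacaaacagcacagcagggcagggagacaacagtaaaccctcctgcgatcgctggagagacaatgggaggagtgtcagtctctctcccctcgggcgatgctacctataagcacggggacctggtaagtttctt

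The promoter stretch of KLF2_2 is the most GC-rich of these 6, at 78.0%, and holds 3 GC boxes and no CACCC box. The stretch of KLF2_3, which lies beyond the end of the gene, holds 4 CACCC boxes and 2 AP-1 elements. KLF6_14 holds 1 of each of the latter, KLF13_39 holds 2 CACCC boxes and KLF5_14 holds 1. None of the 4 elements searched, the cAMP response element TGACGTCA included, was found in KLF6_16.

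The 12 lists were alike in length, since each had been numbered to 300000 lines, but not in depth. They held 108442 to 144398 peak intervals, and the weakest listed −log10 p was 3.37 to 9.38. The background pileup was taken as a low percentile, near the floor, of the local backgrounds at each list's summits. It was 0.936 to 2.35 tags in the NaPr experiment and 2.11 to 3.03 in the NaBu experiment. The total of reads is not given by the lists. Of 8 genes that mark epithelium or intestine, 6 had a promoter peak in all 12 libraries, KRT20 in 4 and CDX1 in none. Promoters of the immune markers PTPRC and CD3E and the endothelial markers PECAM1 and CDH5 had no peak in any library. Of the fibroblast markers, COL1A1 had a promoter peak in all 12 libraries, and COL3A1 and DCN in none. The COL1A1 promoter rose by 7.31 points after NaBu (SE 0.870, limma adjusted p = 0.00101), KRT8 rose by 3.72 points, and EPCAM fell by 6.38 points after NaBu and fell by 3.76 points after NaPr. The NaPr call of EPCAM was lost with any 1 NaPr library left out. The part of these markers in the results was not tested.

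The promoters of the KLF genes were open in untreated cells. A region lay at, or within 1 kb of, the main transcript start of each of the 10 genes and was found in all 12 libraries. In untreated cells of the NaPr experiment these promoters ranked from 88.1 ± 3.01 at KLF10 and 89.4 ± 2.06 at KLF11 to 98.5 ± 0.442 at KLF13 and 100 ± 0.00512 at KLF5 (mean ± SD, n = 3). KLF2, KLF3, KLF4, KLF6 and KLF9 lay between 92.9 and 94.7 and overlapped each other from one mean to the next, and KLF7, at 96.4 ± 0.745, overlapped KLF6. In untreated cells of the NaBu experiment KLF5 was again first at 99.8 ± 0.0283, followed by KLF13 at 94.8 ± 1.59 and KLF7 at 94.6 ± 0.322, whose ranges overlapped. KLF9 (90.9 ± 0.712), KLF10 (89.7 ± 1.78), KLF6 (88.7 ± 3.63), KLF4 (86.3 ± 4.25) and KLF2 (83.1 ± 2.41) came next, followed by KLF3 at 77.8 ± 9.82, each overlapping the one before it in at least 1 library apart from KLF9, which did not overlap KLF7. KLF11 was last at 58.5 ± 4.07 and overlapped none of the others.

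**Figure D1:**
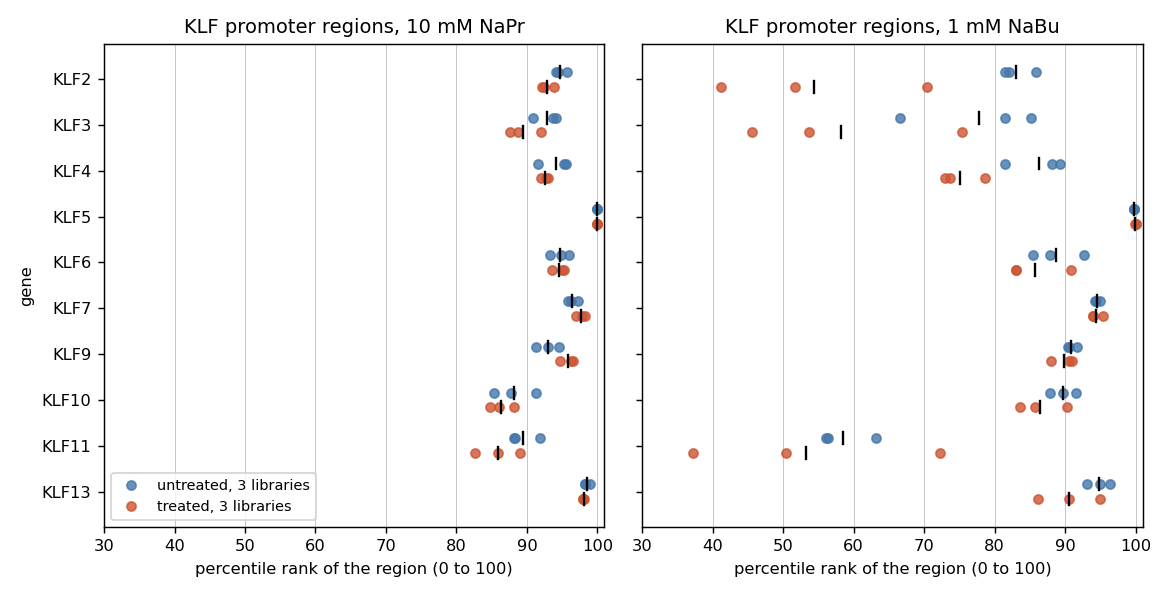
Percentile rank (x axis, 0 to 100, drawn from 30) of the promoter region of each KLF gene (y axis) in each library, with untreated libraries in blue, treated in orange and the mean of 3 as a black bar. After NaPr the groups lie close together, whereas after NaBu the KLF2 and KLF4 promoters fell from means of 83.1 and 86.3 to 54.4 and 75.1.

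After NaPr, 3 KLF regions rose and 2 fell among 87 tested. Over all regions 4.57% were called higher and 3.99% lower, so that the shares of the KLF regions, 3.45% and 2.30%, were near the background. The other 82 tested regions were not called, and 26 of the 87 had an unadjusted p below 0.05. The rises were at KLF3 (KLF3_5 and KLF3_9) and KLF13 (KLF13_39), and the falls at KLF6 (KLF6_14) and KLF9 (KLF9_11). The groups did not overlap in any of the 5, which was not counted over all called regions. The calls rest on all 6 libraries: leaving out any single treated library, or untreated replicate 3, left 0 limma calls among the KLF regions, with 20 to 25 at an unadjusted p below 0.05, and leaving out untreated replicate 1 or 2 left 2 and 1. The loss was genome-wide: without any 1 treated library limma called 0 of all 114699 to 117931 regions, and without untreated replicate 3 it called 536 higher and 126 lower of 118137. In 4 of the 5 called regions (KLF3_9, KLF13_39, KLF6_14 and KLF9_11) one group had no peak in any library. These passed the filter only through the other group and so had to differ, and their adjusted p is a description rather than support for a change.

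KLF13_39 had the largest rise of the called KLF regions after NaPr. It lies 3′ of KLF13, a factor of the SIN3 group first known from T lymphocytes, at chr15:31443657-31444170. No untreated library listed a peak there, and the NaPr libraries ranked it at 59.4, 62.0 and 60.8, with 18, 26 and 40 tags at the summit (change 60.8 points, SE 9.45, limma adjusted p = 0.00916). The treated libraries differed by less than 3 points from each other. The adjusted p was 0.0509 without untreated replicate 3, and 0.0515, 0.0542 and 0.0524 without NaPr replicate 1, 2 and 3.

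KLF3 had the remaining rises, both inside introns. KLF3_9, at chr4:38687573-38688151, had no peak in untreated cells and ranked 48.9, 62.9 and 33.3 after NaPr, with 10, 18 and 14 tags (change 48.4, SE 11.2, limma adjusted p = 0.0311). KLF3_5, at chr4:38666676-38667482, had peaks in all 6 libraries and moved from 59.4, 63.0 and 55.8 to 73.4, 74.5 and 79.6 (change 16.4, SE 3.67, limma adjusted p = 0.0278). KLF3_9 is thus a region listed after treatment only, and KLF3_5 a region already open that ranked higher. Both lost their call without any 1 of the 6 libraries, at an adjusted p of 0.0541 to 0.0885 for KLF3_9, which also lost it when ranked within each list (0.0720) or with a peak in at least 1 library (0.0581).

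The falls were of weak peaks near the starts of KLF6 and KLF9. KLF6, a widely expressed activator also studied as a tumour suppressor, has KLF6_14 (chr10:3782978-3783224) in an exon of a noncoding transcript 2167 bp from its main start. It ranked 56.5, 64.8 and 48.1 in untreated cells, at a fold enrichment of 2.87, 3.27 and 2.49, and no NaPr library listed a peak (change −56.5, SE 10.1, limma adjusted p = 0.0135). The call held without untreated replicate 1 and was lost without any other library, at an adjusted p of 0.0523 to 0.0568. KLF9_11 (chr9:70418264-70418660) lies upstream of KLF9, which is known to be induced by glucocorticoid and thyroid hormone, with a summit 3796 bp from the start. It ranked 34.0, 46.1 and 43.1 in untreated cells and was absent from the NaPr lists (change −41.1, SE 10.1, limma adjusted p = 0.0379). Its fold was only 1.74, 1.79 and 1.78 over 57, 103 and 122 tags, and its call was lost without any 1 library (adjusted p of 0.0528 to 0.0801). Neither held its call when regions were ranked by fold enrichment (adjusted p = 0.106 and 0.136). Windows of 150 bp on each side of the summits were merged where they overlapped. The merged window holding the KLF9_11 summit changed by 0.0400 (limma adjusted p = 0.988). Its stronger neighbour KLF9_12 changed by 0.039 as a region (limma adjusted p = 0.987). The windows thus gave no separate value for KLF9_11.

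KLF2, a factor best known from quiescent endothelium and lymphocytes and named by the study for gained accessibility, had no call among 4 tested regions after NaPr. The study tested reads with DiffBind, a measure unlike the rank of listed peaks. KLF2_4, 7389 bp downstream of the start at chr19:16331869-16332498, was listed in no untreated library and in the 3 NaPr libraries at ranks of 27.6, 35.9 and 26.9, with 36, 45 and 79 tags at 2.13-, 2.21- and 1.91-fold over background. The change of 30.1 (SE 9.95) had a limma adjusted p of 0.0876. KLF2_4 passed the filter only through the treated group, so its adjusted p is a description. No library of the NaBu experiment listed a peak there. Its neighbour KLF2_3 had 90, 179 and 198 tags in untreated cells and 113, 152 and 319 after NaPr, while its fold enrichment was 14.3, 14.4 and 14.8 before and 6.33, 6.89 and 7.17 after, without overlap. The rank of KLF2_3 moved by −2.18 (SE 1.17, limma adjusted p = 0.262).

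No KLF promoter was called after NaPr. The changes of the 10 promoters ran from −3.55 (SE 1.70) at KLF11 and −3.47 (SE 1.32) at KLF3 to 2.86 (SE 0.945) at KLF9, at adjusted p of 0.0880 to 0.996. At KLF5, which ranked 100 before and after NaPr, the scale left almost no room for a rise. Its fold enrichment was 19.8, 20.7 and 19.7 before and 24.1, 22.6 and 22.1 after. Ranking by fold did not call it (change 0.835, limma adjusted p = 0.696). The summit tags gave a further measure of the same promoters. Centred on the median of all regions, tags were called lower at 5 of the 10 promoters after NaPr, namely KLF3 (log2 change −0.44, SE 0.11), KLF4, KLF10, KLF11 and KLF13. On that scale 19.9% of all regions in the 6 lists, and 44% of those within 1 kb of a coding start, were lower. Scaled by each library's background pileup, the same tags gave 0 lower promoters of 10, against 1.03% of the regions within 1 kb of a coding start, and the median of all regions shifted by 0.205 on the log2 scale. The direction at the KLF3, KLF4, KLF10, KLF11 and KLF13 promoters was negative on both scales, and that of KLF2, KLF5 and KLF6 turned from negative to positive. KLF11_5, a separate small region at the first annotated start of KLF11, which is induced early by TGF-beta, ranked 23.2, 52.3 and 29.5 in untreated cells and was not listed after NaPr (change −35.0, SE 11.3, limma adjusted p = 0.083). KLF11_5 passed the filter only through the untreated group, so its adjusted p is a description.

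The split of all NaPr calls also depended on the scale. Of all called regions 53.3% were higher by rank, against 92.5% with tags scaled by background and 38.1% with tags centred on the median. Among the 48 KLF regions with peaks in all 6 libraries, these scales gave 6 higher with 0 lower and 6 higher with 11 lower. Over all 65178 such regions they gave 8812 higher with 718 lower and 7978 higher with 12969 lower, shares near those of the KLF regions.

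**Figure D2:**
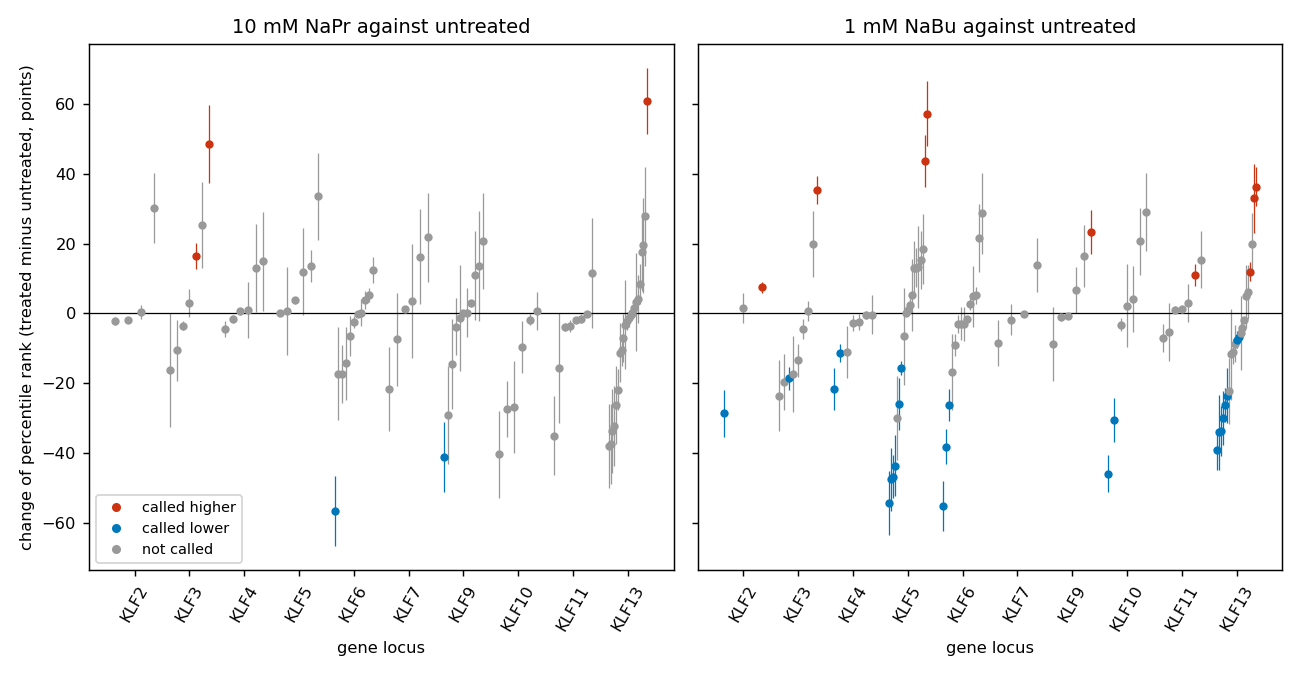
Change of percentile rank, treated minus untreated (y axis, points), of each tested region of the 10 KLF loci (x axis, regions of a gene in order of change), with bars of 1 SE and colours for regions called higher, called lower or not called. After NaPr 3 regions were called higher and 2 lower, and after NaBu 9 were higher and 23 lower.

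After NaBu, 9 KLF regions rose and 23 fell among 97 tested. Over all regions 19.8% were higher and 17.2% lower. Of the KLF regions 9.28% were higher and 23.7% lower, and 43 had an unadjusted p below 0.05. The median change was −2.40 points over the KLF regions and 0.710 over all regions. When peaks were ranked only among those of their own list, the KLF counts were 12 higher and 18 lower, the median over all regions 2.92 and the share of higher regions among all calls 64.7% in place of 53.4%. The groups did not overlap in any of the 32 called KLF regions. Of these, 15 of the 23 lower and 6 of the 9 higher held their call whichever library was left out. Ranked by fold enrichment, 17 and 5 held it. These counts were not made over all called regions, so they describe the KLF calls and set them against no background. In 4 of the lower regions (KLF5_12, KLF10_3, KLF13_30 and KLF13_31) and 3 of the higher ones (KLF5_7, KLF9_8 and KLF13_39) one group had no peak, and the same limit applies to their adjusted p.

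By role, the 5 activator genes had 3 higher and 12 lower among 47 tested regions, beside 19.8% higher and 17.2% lower over all regions. KLF3 had 1 higher and 1 lower of 9, and the 4 genes of the SIN3 group 5 higher and 10 lower of 41. KLF7, known from neurons, had no call among 4, with all changes between −8.50 and 13.9.

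At KLF2, NaBu moved neighbouring regions in opposite directions. The promoter KLF2_2 (chr19:16324144-16325665) ranked 82.0, 85.8 and 81.4 in untreated cells and 70.4, 41.2 and 51.7 after NaBu (change −28.6, SE 6.62, limma adjusted p = 0.0123). Its summit had 157, 120 and 111 tags before and 74, 37 and 44 after, a log2 change of −1.32 (SE 0.20, limma adjusted p = 2.37e-05) when centred on the median of all regions. All treated values were below all untreated ones on both scales. The rank call was lost without untreated replicate 1 (adjusted p = 0.0509), untreated replicate 2 (0.0559) or NaBu replicate 3 (0.059).

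KLF2_3 (chr19:16330091-16331681), 5787 bp downstream of the start, ranked 82.9, 80.4 and 78.8 in untreated cells and 86.8, 90.1 and 87.3 after NaBu (change 7.43, SE 1.45, limma adjusted p = 0.0064). Its summit had 144, 85 and 94 tags before and 151, 182 and 161 after. Fold enrichment went the other way, from 15, 13.5 and 12.8 to 11.8, 13.1 and 11.7, so that ranking by fold gave a change of −6.05 (adjusted p = 0.0701). The rise of KLF2_3 thus holds for tags and for significance but not for the ratio to the local background.

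At KLF4, known from differentiated epithelium, 2 of 7 tested regions fell and none rose. The promoter KLF4_6 (chr9:107489396-107490769) went from 89.3, 88.2 and 81.4 to 78.7, 72.9 and 73.6, with 250, 152 and 133 tags before and 109, 90 and 94 after (change −11.3, SE 2.49, limma adjusted p = 0.0103). KLF4_3, 8505 bp from the start on its downstream side, went from 46.8, 41.9 and 48.6 to 18.2, 20.3 and 33.7 (change −21.7, SE 6.05, limma adjusted p = 0.0251). The promoter held its call without any 1 library. KLF4_3 lost it without untreated replicate 1 or 3 or NaBu replicate 1 or 2, at an adjusted p of 0.0638 to 0.0729, and with quantile-normalized values (0.0654) or tags centred on the median (0.0516).

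KLF5, the activator of dividing crypt cells, had the promoter of highest rank, which was not called after NaBu. The scale ends at 100 and left almost no room for a rise of rank there. KLF5_13 (chr13:73058224-73059777) ranked 99.8 in each untreated library and 99.9, 100 and 100 after NaBu (change 0.157, SE 0.302, limma adjusted p = 0.709), with 932, 649 and 730 tags before and 726, 740 and 760 after. Its fold enrichment rose from 15.5, 14.1 and 15.2 to 21.7, 23 and 22.8, and ranking by fold called it higher (change 11.7, adjusted p = 0.000858). On both sides of this promoter smaller peaks fell. KLF5_11 and KLF5_12, 2600 and 2322 bp before the main start, changed by −43.5 (SE 8.65) and −46.7 (SE 6.23), and KLF5_14 and KLF5_15, 2069 and 3151 bp after it, by −54.2 (SE 9.24) and −25.9 (SE 7.50), with limma adjusted p of 0.00151 to 0.0292. KLF5_14 (chr13:73060964-73061128) ranked 51.1, 72.7 and 66.0 in untreated cells, at 152, 169 and 160 tags, and was listed in 1 NaBu library only, at 27.1 and 78 tags. Among the top 50000 intervals of each list its change was −21.1 (adjusted p = 0.108).

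Farther upstream of KLF5, neighbouring regions moved in opposite directions. KLF5_3 (chr13:73038070-73038405), 20833 bp before the main start, was listed in 1 untreated library at 33.5 and in the 3 NaBu libraries at 69.3, 64.0 and 71.9 (change 57.2, SE 9.39, limma adjusted p = 0.0033). KLF5_5 (chr13:73039219-73040199) ranked 86.4, 93.0 and 86.3 before and 73.0, 72.4 and 73.1 after (change −15.7, SE 1.97, limma adjusted p = 0.00122), and KLF5_6, beside it, fell by 47.5 points (SE 9.02). KLF5_7, 13528 bp before the main start, was listed in no untreated library and ranked 58.2, 36.8 and 36.1 after NaBu (change 43.7, SE 7.38). KLF5_3, KLF5_5 and KLF5_6 had no peak in the NaPr experiment, and KLF5_7 had one in a single NaPr library. In all, 15 of the 24 KLF5 regions had peaks in the NaBu experiment only, untreated libraries included, and 18 of the 24 were not tested in the NaPr experiment. KLF5_22, 31565 bp after the start, ranked high in both experiments, at 98.4 ± 0.139 before and 99.3 ± 0.0211 after NaBu (n = 3, change 0.912, limma adjusted p = 0.0642), and at 94.3 ± 2.31 before and 98.1 ± 0.370 after NaPr (n = 3, change 3.79, limma adjusted p = 0.0503).

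KLF6 had 3 regions lower and none higher among 14 tested after NaBu, all 3 in the first 2167 bp of the gene and side by side. KLF6_16 (chr10:3783773-3784332) ranked 53.5, 67.6 and 63.1 before, and 18.5 in 1 NaBu library with no peak in the other two (change −55.2, SE 7.17, limma adjusted p = 0.00138), a call lost among the top 50000 intervals (change −15.5, adjusted p = 0.13). KLF6_15 went from 72.7, 67.3 and 71.3 to 24.1, 37.1 and 35.9 (change −38.1, SE 5.01), and KLF6_14 from 59.9, 61.9 and 62.6 to 34.3, 31.0 and 40.9 (change −26.1, SE 4.61, limma adjusted p = 0.00437). KLF6_14 is the region that no NaPr library listed. The promoter beside them, KLF6_17, ranked 88.7 ± 3.63 before and 85.7 ± 4.51 after (n = 3, change −3.02, SE 2.52, limma adjusted p = 0.364).

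**Figure D3:**
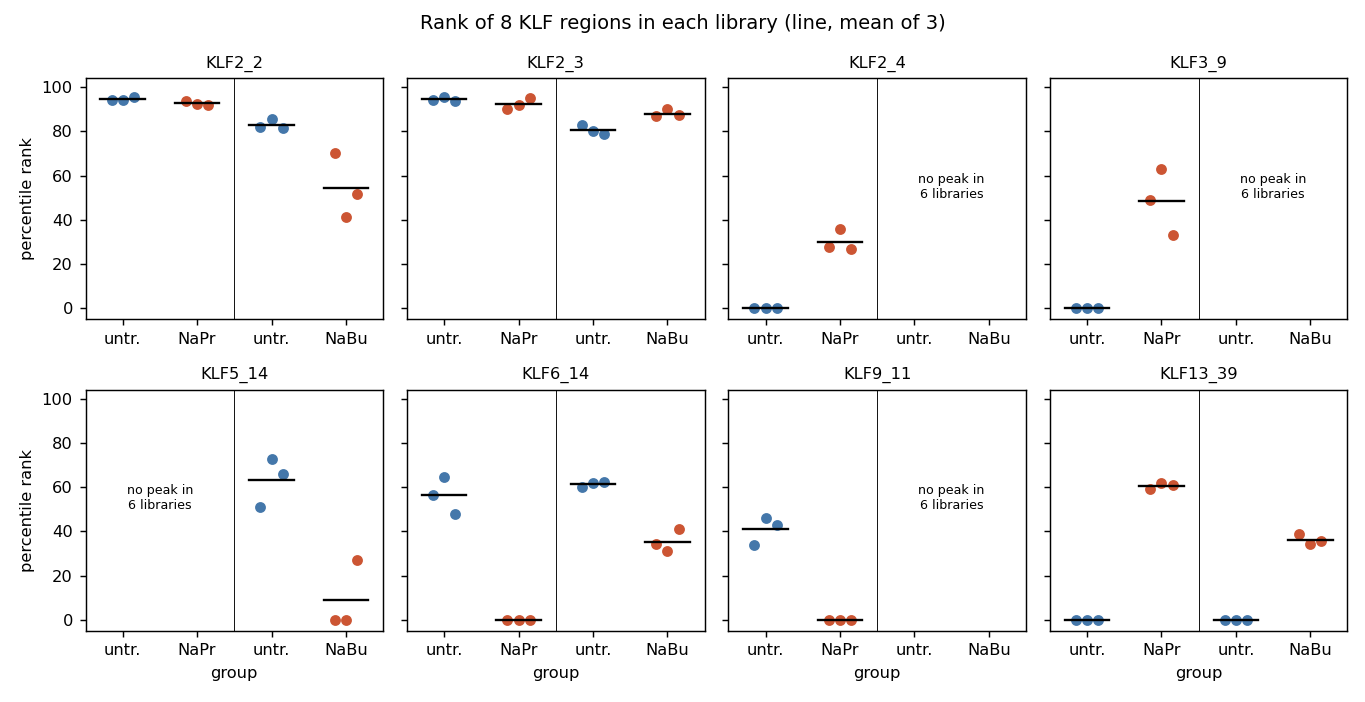
Percentile rank (y axis, 0 where no peak was listed) of 8 KLF regions in each library by group (x axis, 3 libraries each, mean as a line), with the NaPr experiment left and the NaBu experiment right of the vertical line. KLF13_39 has peaks in all 6 treated libraries and in none of the 6 untreated ones, a pattern not counted over all regions. KLF2_2 and KLF2_3 move apart after NaBu.

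KLF3, the CtBP-binding repressor, had 1 region higher and 1 lower of 9. KLF3_10 (chr4:38701721-38702905), just past the 3′ end of the gene, ranked 41.1, 36.8 and 35.0 in untreated cells and 76.4, 71.5 and 70.4 after NaBu, and its tags went from 27, 19 and 21 to 70, 63 and 60 (change 35.2, SE 4.01, limma adjusted p = 0.000882). With all 12 libraries in one fit the change was 26.5 and not called (adjusted p = 0.128). KLF3_7, in an intron, went from 75.3, 86.5 and 87.1 to 63.5, 65.9 and 63.8 (change −18.6, SE 3.31, limma adjusted p = 0.00451). The promoter KLF3_4 had 249, 140 and 102 tags before and 105, 55 and 62 after, which overlapped in 1 library, and its ranks of 85.2, 81.4 and 66.6 and of 75.4, 45.6 and 53.6 overlapped (change −19.6, SE 7.96, limma adjusted p = 0.0924). KLF3_5, higher after NaPr, changed by −4.36 (SE 2.90, limma adjusted p = 0.255) after NaBu, and KLF3_9 had no peak in the NaBu experiment.

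In the SIN3 group KLF13 carried most calls, with 3 higher and 8 lower of 21. KLF13_39 ranked 39, 34.3 and 35.6 after NaBu, with 31, 30 and 31 tags, and again no untreated library listed it (change 36.3, SE 5.46, limma adjusted p = 0.00236). It was thus listed in all 6 treated libraries and in none of the 6 untreated ones. In both experiments it passed the filter only through the treated libraries. Regions with this pattern were not counted over all regions. KLF13_30, in an intron at chr15:31405413-31405921, ranked 44, 40.7 and 32.2 before and was not listed after NaBu (change −39, SE 5.88, limma adjusted p = 0.0024). The remaining KLF13 rises were 32.9 (KLF13_15) and 11.9 (KLF13_25) points, and the remaining falls were between 6.71 (KLF13_1) and 34.0 (KLF13_6) points. KLF13_37, on the same 3′ side of the gene as KLF13_39, is among these, at −33.5 (SE 7.15, limma adjusted p = 0.00898).

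KLF10, which like KLF11 is induced early by TGF-beta, had 2 lower regions of 7. KLF10_3 (chr8:102647315-102648184), just past the 3′ end, ranked 45.8, 48.9 and 43.1 before and was not listed after NaBu (change −45.9, SE 5.29, limma adjusted p = 0.000905). KLF10_7, 1612 bp upstream of the start, went from 74.7, 73.1 and 77 to 40.9, 58.6 and 33.5 (change −30.6, SE 6.28, limma adjusted p = 0.00775). In the NaPr experiment the same regions changed by −40.3 (adjusted p = 0.0736) and −27.3 (adjusted p = 0.0611) and were not called.

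KLF9 and KLF11 had 1 higher region each and none lower. KLF9_8, in an intron of KLF9, was listed after NaBu only, at 17.9, 22.5 and 29.5 (change 23.3, SE 6.19, limma adjusted p = 0.0209). Its call was lost when peaks were ranked within each list (change 11, adjusted p = 0.125). KLF11_3, 7276 bp upstream of KLF11, went from 61.6, 63.7 and 69.0 to 77.9, 78.2 and 71.1 (change 11, SE 3.09, limma adjusted p = 0.0265), and it lost its call without untreated replicate 1 or 2 or NaBu replicate 1 or 2, at an adjusted p of 0.0740 to 0.0886, or when ranked by fold (0.203). The promoters of both genes were not called, with changes of −1.08 (SE 0.954) at KLF9 and −5.28 (SE 8.33) at KLF11.

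On the tag scale most KLF promoters were called lower after NaBu, at a share near that of other promoters. Centred on the median of all regions, tags were called lower at 7 of the 10 promoters, from −0.23 (KLF7, SE 0.09) and −0.32 (KLF9) over −0.61 (KLF10), −0.76 (KLF13), −0.77 (KLF4) and −1.05 (KLF3) to −1.32 (KLF2) on the log2 scale. KLF5 (0.01, SE 0.06), KLF6 (−0.33, SE 0.14) and KLF11 (−0.14, SE 0.22) were not called. Of all regions in the 6 lists 28.6% were lower on this scale, and of those within 1 kb of a coding start 59.1%. The background scaling called the same number of promoters lower.

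Calls after NaBu were also counted by distance from the start. Of 17 tested regions with a summit 1 to 5 kb from the main start of the gene, 9 were lower and none higher. Over all regions 1 to 5 kb from the nearest coding start 22.7% were lower and 18.8% higher. The 9 regions belonged to KLF5 (4), KLF6 (3), KLF10 (1) and KLF13 (1), and neighbours at 1 gene are not independent. They were 81 to 560 bp wide and had 77 to 248 tags in untreated cells at only 1.92- to 4.81-fold over the local background, and they changed by −55.2 to −25.9 points. Leaving out single libraries gave 7 to 10 lower and at most 2 higher of 14 to 17, and ranking by fold 5 of 17. Among the 5 regions of the band with peaks in all 6 lists all 5 were lower in summit tags. Of these, KLF6_14, KLF6_15 and KLF10_7 were called lower by rank, and KLF3_5 and KLF13_8 were not called by rank. The remaining lower regions lacked a peak in some list and were not in the fit of tags. Calls by tags were not counted over all regions of the band. Of all regions in the 6 lists 28.6% were lower in tags centred on the median. Tags and ranks come from the same peaks, so the 5 of 5 is no separate check. No test compared the bands. Within 1 kb of the start 2 of 11 fell and none rose, against 28.0% lower and 6.47% higher over all regions in that band. At 5 to 20 kb 4 rose and 6 fell of 31, against 21.4% higher and 15.2% lower. Beyond 20 kb 5 rose and 6 fell of 38, against 22.1% higher and 14.9% lower. Inside the gene bodies 3 rose and 16 fell of 47, and in the flanks 6 rose and 7 fell of 50. Gene bodies and flanks were not counted over all regions, so these counts have no background. After NaPr the band of 1 to 5 kb had 1 higher (KLF3_5) and 2 lower (KLF6_14 and KLF9_11) of 7, against 6.35% and 6.26% over all regions.

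**Figure D4:**
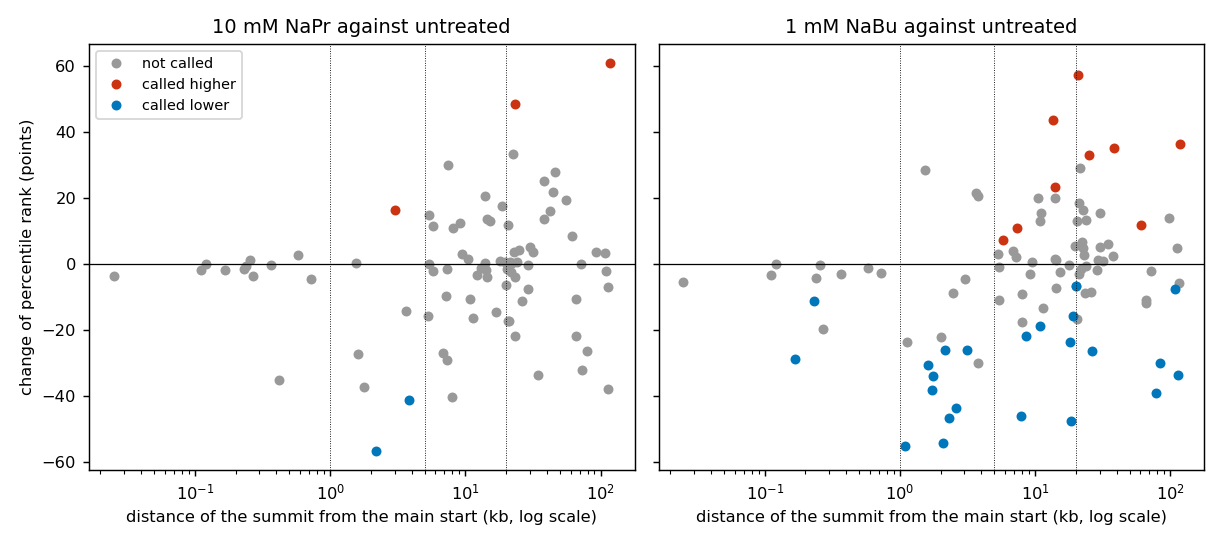
Change of percentile rank (y axis, points) of each tested KLF region against the distance of its highest summit from the main transcript start of its gene (x axis, kb, log scale), with dotted lines at 1, 5 and 20 kb. After NaBu 9 of the 17 regions between 1 and 5 kb were called lower and none higher.

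The letters of the CACCC box were found in the 200 bp of 56.7% of the 97 KLF regions tested in the NaBu experiment, against 47.1% of all tested regions. The GC box was found in 24.7% against 16.3%, the AP-1 element in 11.3% against 16.2%, and the cAMP response element in none against 0.465%. A GC box was present in 6 of the 23 lower and 1 of the 9 higher KLF regions, near the 22.4% of all lower and 11.3% of all higher regions. A CACCC box was present in 10 of the 23 lower and 5 of the 9 higher KLF regions. Over all regions it was present in 47.9% of the lower and 49.9% of the higher. An AP-1 element was present in 3 of the lower and 3 of the higher KLF regions. Over all regions an AP-1 element was present in 21.9% of those called higher and 12.0% of those called lower. In the NaPr experiment the KLF shares were 59.8% for the CACCC box, 29.9% for the GC box and 17.2% for AP-1, against 49.3%, 16.7% and 15.7% of all tested regions.

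The KLF loci took a smaller share of the peak bases after NaBu. They held 0.0912%, 0.0940% and 0.0900% of all peak bases in untreated cells and 0.0811%, 0.0784% and 0.0781% after NaBu, a difference of −0.0125 percentage points without overlap of the groups (0.0917 ± 0.00202 against 0.0792 ± 0.00166, n = 3, two-sided exact permutation test, p = 0.1, the smallest p that 3 against 3 allows). The number of peak intervals in the loci was 93.3 ± 6.03 before and 97.0 ± 4.36 after (n = 3, exact permutation test, p = 0.5), so that the intervals were no fewer but covered less of the listed bases. With NaPr the share was 0.0921% ± 0.00376 before and 0.0924% ± 0.00349 after (n = 3, exact permutation test, p = 0.7).

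**Figure D5:**
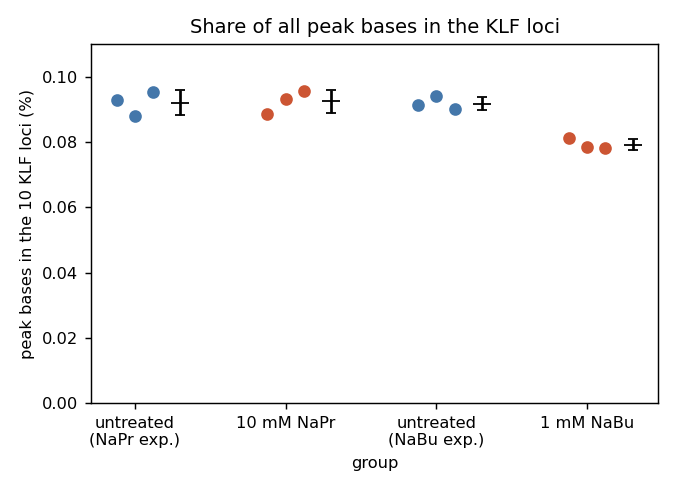
Share of all peak bases that lies in the 10 KLF loci (y axis, percent, from 0) in each of the 12 libraries by group (x axis), with the mean and SD of 3 beside the points. The NaBu libraries lie at 0.0781% to 0.0811%, below the 0.0900% to 0.0940% of their untreated libraries.

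The experiments shared part of the KLF landscape. 37 of the 153 regions had a peak in all 12 libraries, 43 had peaks in the NaPr experiment only and 34 in the NaBu experiment only. 65 regions were tested in both experiments and 34 in neither. KLF13_39 and KLF6_14 were the only KLF regions called in both, each in the same direction, and no KLF region was called in opposite directions. Calls in both experiments were not counted over all regions, so these counts have no background.

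Other genes of the family and its partners were counted in the same way. The 8 further KLF genes had 76 regions, with 2 higher and 2 lower of 36 tested after NaPr and 7 higher and 7 lower of 38 after NaBu. Their shares, 5.56% in each direction after NaPr and 18.4% after NaBu, were near the 4.57% and 3.99%, and the 19.8% and 17.2%, of all regions. The KLF16 promoter fell by 8.62 points with NaPr (SE 1.59, limma adjusted p = 0.0152), a call lost with any 1 NaPr library left out. The KLF14 promoter fell by 17.1 points with NaBu (SE 5.22, limma adjusted p = 0.0352). The 9 SP genes, whose zinc fingers resemble those of the KLF proteins, had 2 higher and 4 lower of 67 after NaPr and 7 higher and 15 lower of 58 after NaBu, which is 2.99% and 5.97%, and 12.1% and 25.9%. Their called promoters were SP6 (−4.89) and SP9 (6.57), both after NaBu.

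The 12 regulators and partners of KLF proteins had 8 higher and 5 lower of 119 after NaPr and 22 higher and 30 lower of 133 after NaBu. Their shares were 6.72% and 4.2% after NaPr, and 16.5% and 22.6% after NaBu, beside the same shares of all regions. The promoter of CTBP1, a CtBP corepressor, fell after both acids, by 10.8 points after NaPr (SE 2.17, limma adjusted p = 0.0200) and by 23.8 after NaBu (SE 6.06, limma adjusted p = 0.0178). With any 1 NaPr library left out no NaPr call remained, that of CTBP1 included. Over all regions within 1 kb of a coding start, 9.2% were lower and 1.18% higher after NaPr. After NaBu 28.0% of them were lower and 6.47% higher. After NaBu the SIN3A promoter rose by 1.82 points (SE 0.538, limma adjusted p = 0.0315) and that of SIN3B fell by 15.7 (SE 4.07, limma adjusted p = 0.0192). The promoters of MEF2A, which regulates KLF2, and of the ubiquitin ligase SMURF1 fell by 13.3 and 5.92 points. Promoters of MAPK7, MEF2C, MEF2D and the ubiquitin ligases WWP1, FBXW7 and ITCH were not called after either acid. CTBP2, another CtBP gene, had no region within 1 kb of its main start.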

How the data were processed

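ATAC-seq was performed by the authors with Omni-ATAC on 50000 viable cells per reaction. Reads were processed with the ENCODE pipeline to GRCh38 peaks, and the submitters' notes name bcl2fastq 2.17.1, cutadapt 1.9.1, Bowtie2 2.3.1 and MACS2 2.1.0. The deposited lists, 1 per library and not pooled, give each peak's position, its fold enrichment as a ratio over the local background, −log10 p, −log10 q and summit. 8 lists of CT26 cells were not used. The authors tested reads with DiffBind, which the lists do not allow.

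Peaks were merged over the 12 libraries (overlap of at least 1 bp). Each region took its best −log10 p per library, ranked as a percentile over the regions tested, and was tested with limma 3.58.1 (R 4.3.3) with an intensity trend, two-sided, treated against untreated within each experiment, with Benjamini-Hochberg adjustment. Summit tags were solved from fold and p (100% of summits, within 0.01 of log10 p). The steps were tested on simulated data. Genes were placed with GENCODE 44. Shares of peak bases were compared by exact permutation tests.

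Named regions were the promoter of each gene and, among called regions, its largest rise and largest fall in each experiment, and in the other lists the called promoters. No region met the rule at the annotated start of KLF5 and KLF7, and the main-transcript starts used there and at KLF11 were chosen after the values were seen, as were the marker genes with a called promoter, KLF2_4, KLF3_5, KLF5_22 and the further called regions named at KLF5, KLF6, KLF10 and KLF13. The members and lists were chosen with earlier results of these data known. Replicates shared 0.217% to 0.796% of identical intervals. The alternatives were other filters, flanks, scalings, a fit of all 12 libraries, a replicate block and leaving out each library.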

Additional observations from a re-analysis of the deposited data

How the results depend on the processing

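The NaPr calls depended on the processing. The 3 higher and 2 lower KLF regions became 6 and 9 with a flank of 50 kb, 5 and 4 with quantile-normalized values, 6 and 0 with tags scaled by background, 6 and 11 with tags centred on the median and 6 and 7 with all 12 libraries in one fit. The lower count was 1 by fold, within summit windows, with a peak in 1 library or more and by ranks within each list (chosen after seeing the data), and 7 with a peak in at least 3. Leaving out 1 library gave 0 to 1 higher and 0 to 1 lower. Replicate numbers paired the libraries little if at all. Correlations of deviations were 0.0071 to 0.0461 for libraries of the same number and −0.0344 to 0.0198 for those of different numbers. With the replicate block limma called 0 higher and 0 lower KLF regions after NaPr (23 at an unadjusted p below 0.05), as it called 0 of all 124067 regions, and 9 and 25 after NaBu, where KLF9_8 lost its call (adjusted p = 0.0551). The difference of the NaPr share of peak bases was −6.41e-05 with the top 50000 intervals, −0.000556 at a −log10 q of at least 2, −0.00401 with summit windows and −0.00166 to 0.00229 without 1 library, and that of NaBu stayed between −0.0182 and −0.0114.

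After NaBu the 9 higher regions became 5 with a flank of 5 kb, 19 regions were higher and 41 lower with 50 kb, and the 23 lower became 12 with the top 50000 intervals. Without 1 library 7 to 12 were higher and 17 to 22 lower.

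These changes turned sign. By fold: KLF7_11 −0.0597 and KLF13_5 2.03 (NaPr), and KLF2_3 −6.05, KLF7_11 0.970, KLF10_6 2.39 and KLF13_5 3.86 (NaBu). By ranks within each list: KLF6_17 0.143 (NaPr) and KLF7_11 0.411 (NaBu). With tags, KLF2_2 0.146 and KLF6_17 0.213 scaled by background and KLF5_13 −0.0123 centred on the median, all NaPr. In summit windows the merged window holding KLF9_11 was 0.0400 (NaPr), which is no separate value for that region. With the top 50000 intervals KLF11_6 was 6.34 (NaBu). Without 1 library KLF6_17 ran from −0.859 to 0.573 (NaPr), KLF7_11 from −0.665 to 0.124 and KLF11_6 from −15.3 to 2.93 (NaBu). Apart from KLF2_3 and KLF9_11 these were promoters without a call, and the causes were not tested. The depth of the libraries is not known beyond the background pileup, and a region without a listed peak has no measured level.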
